A study of Mus musculus with 6 samples.

Results

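The platelet-derived growth factor (PDGF) family in mouse consists of the ligand genes Pdgfa, Pdgfb, Pdgfc and Pdgfd and the receptor genes Pdgfra and Pdgfrb. Its 6 members were chosen by symbol, and all 6 had a row in each of the 6 count tables, among 19349 genes in all. PDGF ligands are secreted dimers that bring receptor tyrosine kinases together on the receiving cell. The A chain binds the alpha receptor, the B chain binds both receptors, and the C and D chains are secreted in a latent form that must be cut before it can bind. In the liver, PDGF is known as a mitogen and a chemoattractant of hepatic stellate cells, the vitamin A-storing pericytes of the sinusoid that deposit scar matrix once activated. In the text-book account the endothelial cells and macrophages of the injured liver are senders of the signal, and stellate cells and portal fibroblasts receive it.

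The libraries held liver non-parenchymal cells, the cells of the liver other than hepatocytes, of mice with nonalcoholic steatohepatitis (NASH). Male C57BL/6J mice were put on a high-fat diet at 8 weeks of age and kept on it for 24 weeks, and during the last 8 weeks they received by gavage either vehicle (DMSO) or ginkgetin, a biflavone from Ginkgo leaves, at 10 mg/kg per day. There were 3 vehicle and 3 ginkgetin libraries and no group on a normal diet, so every value below is from a NASH liver. The labels do not say whether each library came from 1 mouse, so p-values measure the spread between these libraries.

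The libraries held 13128697 to 61796882 unique molecular identifiers (UMIs, counts of captured RNA molecules) in 3577 to 8119 barcodes, and the median barcode held 2398 to 8050 UMIs. Any pair of libraries shared 0 to 85 cell barcodes, at most 1.31% of the smaller library. Replicate 3 of both groups stood apart from replicates 1 and 2. Of all genes, 420 had no UMI in replicates 1 and 2 of either group but at least 50 in each replicate 3, and 259 showed the reverse. Of the 259 symbols seen only in replicates 1 and 2, 200 are listed by RefSeq as another symbol of a gene among the 420, such as Sepp1 for Selenop and Sdpr for Cavin2, so the same gene was counted under different symbols. Replicate 3 of either group shared 0 or 1 barcode with any library of replicates 1 and 2, which shared 23 to 85 among themselves. The labels do not say how replicate 3 was made. Such symbols are among the leading genes of some clusters, and their part in the clustering was not tested. None of the 6 PDGF genes was among these symbols. After the filter on cells, 27544 of 33168 barcodes remained and 26253 of them fell into 14 classes named from marker genes, with the PDGF genes themselves left out of the clustering. Endothelial-like cells numbered 7969, macrophage-like cells 3967, cholangiocyte-like cells 558, stellate-like cells 181 and fibroblast-like cells 56. Since the classes were named from these markers, their levels describe the classes and test nothing. The 8 endothelial markers were each seen in 73.2 to 98.3% of endothelial-like cells, the 11 macrophage markers in 11.6% (Marco) to 99.1% (C1qc) of macrophage-like cells, the 10 stellate markers in 53.6 to 99.4% of stellate-like cells and the 10 fibroblast markers in 21.4% (Mfap4) to 98.2% (Clec3b) of fibroblast-like cells.

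Among the kept cells, Pdgfa gave 2846 UMIs in 1675 cells, Pdgfb 4775 UMIs in 2984 cells, Pdgfc 1868 UMIs in 1223 cells and Pdgfd 1086 UMIs in 802 cells. The receptors were seen in fewer cells, with 787 UMIs of Pdgfra in 202 cells and 833 UMIs of Pdgfrb in 254 cells. On the GRCm38 build, Pdgfa lies on the minus strand of chromosome 5 (138976014 to 138997370), Pdgfb on the minus strand of chromosome 15 (79995874 to 80014977), Pdgfc on the plus strand of chromosome 3 (81036416 to 81214040), Pdgfd on the plus strand of chromosome 9 (6168584 to 6378850) and Pdgfra on the plus strand of chromosome 5 (75152292 to 75198215). Pdgfrb is on chromosome 18. The antisense gene 6330403L08Rik overlaps Pdgfa. It had 93 UMIs in macrophage-like cells beside 1373 of Pdgfa, and 75 in endothelial-like cells beside 318 of Pdgfa. The strand setting of the counting is not given in the sources used here, so the reads of this pair cannot be told apart.

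First, the cells that carry each ligand were located. Levels are given as CPM, a gene's UMIs divided by all UMIs of the class in the library and scaled to 1000000, as the mean ± SD over the libraries with at least 10 cells of the class, and they are compared only between classes and not between genes. Cholangiocyte-like cells, the epithelium of the bile ducts, had the highest level of 3 of the 4 ligands. Pdgfa stood at 137 ± 39.2 CPM (SD, n = 6) in cholangiocyte-like cells. The next classes were mesothelial-like cells at 87.6 CPM (n = 2), stellate-like cells at 41.2 ± 14.0 CPM (SD, n = 5), fibroblast-like cells at 33.7 ± 23.5 CPM (SD, n = 3), plasmacytoid dendritic-like cells at 27.1 ± 12.3 CPM (SD, n = 6) and macrophage-like cells at 26.5 ± 9.97 CPM (SD, n = 6), while endothelial-like cells held 10.9 ± 3.58 CPM (SD, n = 6). In both libraries where the classes could be compared, cholangiocyte-like cells lay above mesothelial-like cells. All mesothelial-like cells were among the highest 5% of doublet scores of their library, except in ginkgetin 2, where 2 of 5 were. The macrophage-like, plasmacytoid dendritic-like and fibroblast-like classes were neighbours in this order and did not differ beyond their spread.

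Pdgfb had another distribution. Its order was led by macrophage-like cells at 57.8 ± 40.4 CPM (SD, n = 6), then NK cell-like cells at 44.9 ± 35.4 CPM (SD, n = 6), endothelial-like cells at 31.2 ± 19.0 CPM (SD, n = 6) and cholangiocyte-like cells at 28.7 ± 27.5 CPM (SD, n = 6). Macrophage-like cells lay above NK cell-like cells in 6 of 6 libraries although the SDs overlap, because both levels were higher in the replicate 3 libraries. Endothelial-like and NK cell-like cells could not be ordered, as NK cell-like cells were higher in 3 of 6 libraries. T cell-like cells held 8.45 ± 4.92 CPM (SD, n = 6) and lay below dendritic-like cells in 6 of 6 libraries. Stellate-like cells, which carry the receptor, had 1 UMI of Pdgfb in 181 cells.

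Pdgfc had a mean level above 10 CPM in a pair of classes only. Cholangiocyte-like cells held 166 ± 37.5 CPM (SD, n = 6) and macrophage-like cells 37.1 ± 26.6 CPM (SD, n = 6), and the first lay above the second in 6 of 6 libraries. Endothelial-like cells had 28 Pdgfc UMIs in 7969 cells. Pdgfd was again highest in cholangiocyte-like cells at 113 ± 25.1 CPM (SD, n = 6). It stood at 55.5 CPM (n = 2) in mesothelial-like cells, 39.0 ± 11.2 CPM (SD, n = 3) in fibroblast-like cells, 16.9 ± 12.5 CPM (SD, n = 5) in stellate-like cells and 14.8 ± 2.82 CPM (SD, n = 6) in endothelial-like cells. In macrophage-like cells it was nearly missing, with 8 UMIs in 3967 cells, and endothelial-like cells lay above them in 6 of 6 libraries. The ligands seen in endothelial-like cells were thus Pdgfb, Pdgfd and some Pdgfa, and those in macrophage-like cells Pdgfa, Pdgfb and Pdgfc.

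The receptors were located in the mesenchymal cells. Pdgfra stood at 522 ± 325 CPM (SD, n = 3) in fibroblast-like cells and at 311 ± 136 CPM (SD, n = 5) in stellate-like cells, and fibroblast-like cells were higher in 2 of the 3 libraries that could be compared. Pdgfrb was highest in stellate-like cells, which lay above fibroblast-like cells in 3 of 3 libraries, at 437 ± 227 CPM (SD, n = 5) against 90.8 ± 58.0 CPM (SD, n = 3). No UMI of Pdgfra was found in the 558 cholangiocyte-like cells, which allows a share of up to 0.538% of cells with a UMI. Macrophage-like cells had 7 UMIs of Pdgfra and endothelial-like cells 10. The heat map by class shows that ligand and receptor genes peaked in different classes.

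**Figure D1:**
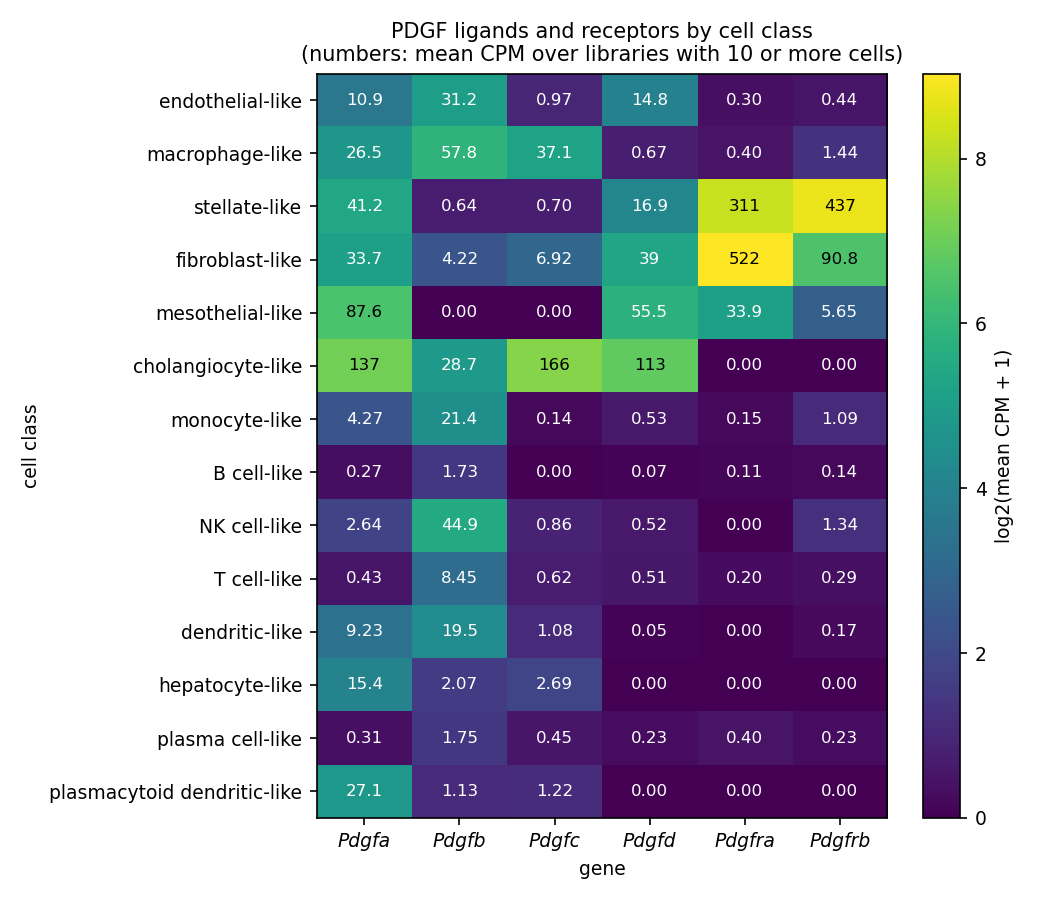
Mean level of each PDGF gene (columns) in each named cell class (rows) over the libraries with at least 10 cells of the class, printed as CPM and coloured by log2(mean CPM + 1). Pdgfa, Pdgfc and Pdgfd peak in cholangiocyte-like cells, Pdgfb in macrophage-like cells, Pdgfra in fibroblast-like cells and Pdgfrb in stellate-like cells.

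The genes whose levels over the 14 classes were most like each member were listed by Pearson's r of log2(CPM + 1) among 11036 genes, as a description over classes that share the same libraries. Pdgfa was closest to Coq2 (r = 0.95), Shb (0.92) and Ptov1 (0.91). Pdgfb was closest to Pcna (0.86), the sliding clamp of DNA replication, Lpar6 (0.84) and Bcl2l11 (0.79). For Pdgfc they were Tmem229a (0.90), Abcc3 (0.88) and Aig1 (0.87), and for Pdgfd Zfp462 (0.98), Cyr61 (0.97) and Nhsl1 (0.97). Pdgfra followed the extracellular matrix genes Lama2 (0.99) and Mfap2 (0.99) and Cpxm1 (0.996). Pdgfrb followed the phosphodiesterases Pde1a (0.98) and Pde3a (0.98) and Mamdc2 (0.98).

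Next, vehicle and ginkgetin were compared in the macrophage-like cells. Pdgfa was lower under ginkgetin and passed the test, Pdgfc was higher and just missed it, and Pdgfb did not differ beyond the spread between libraries. A gene was called at an adjusted p under 0.05 with a fold change over 2. Pdgfa stood at 26.5, 26.5 and 44.5 CPM in vehicle replicates 1, 2 and 3 and at 14.6, 21.1 and 26.0 CPM in ginkgetin replicates 1, 2 and 3. The highest ginkgetin value was still under the lowest vehicle value, and vehicle 3 was the highest. The log2 fold change was -1.09 (SE 0.25, adjusted p = 0.0368, edgeR's quasi-likelihood test), and the vehicle mean was 32.5 ± 10.4 CPM (SD, n = 3) against 20.6 ± 5.76 CPM (SD, n = 3). In this comparison 10.7% of the 10168 genes tested were called and 5.09% were called lower, so the call of 1 member of 3 tested stood against a background in which many genes were called. The call was lost when any 1 of the 6 libraries was left out, at log2 fold changes of -1.22 to -0.83 (adjusted p of 0.0528 to 0.128, edgeR), and no gene at all was called without vehicle 1, vehicle 2 or ginkgetin 2.

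Pdgfc, a ligand that needs proteolytic release, went the other way. It stood at 20.4, 15.6 and 21.1 CPM in the vehicle libraries and at 29.1, 51.3 and 84.9 CPM in the ginkgetin libraries. The groups did not overlap, and ginkgetin 3 was the highest. Its log2 fold change was 1.08 (SE 0.29, adjusted p = 0.0508, edgeR's quasi-likelihood test). With the replicate number as a block it passed at 1.11 (adjusted p = 0.00706, edgeR), as did Pdgfa at -1.16 (adjusted p = 0.00428, edgeR). Pdgfb stood at 25.5, 27.8 and 90.3 CPM under vehicle and at 34.9, 43.8 and 124 CPM under ginkgetin. Replicate 3 of both groups was high and the groups overlapped, with a log2 fold change of 0.07 (SE 0.56, adjusted p = 0.961, edgeR). In CPM each ginkgetin library was above the vehicle library of its number.

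The size of these values depends on how the libraries are scaled. With library totals alone, without TMM, the median log2 fold change over all genes tested moved from 0.02 to 0.52. Pdgfa then stood at -0.59 (adjusted p = 0.228, edgeR) and Pdgfc at 1.60 (adjusted p = 0.0267, edgeR), so that only Pdgfc was called. The genes called then split into 1562 higher and 169 lower, against 571 higher and 518 lower with TMM. The number of cells and their depth moved with the groups as well. There were 1240, 735 and 1096 macrophage-like cells in the vehicle libraries and 104, 242 and 550 in the ginkgetin libraries, and the median cell held 9320, 7506 and 16282 UMIs against 2372, 2053 and 2340. Under ginkgetin, Pdgfa rested on 5, 14 and 54 UMIs and Pdgfc on 10, 34 and 176. The summed level of all 8 endothelial markers within macrophage-like cells was 186 to 209 CPM under vehicle and 914 to 1636 CPM under ginkgetin. Endothelial-like cells themselves held 0.30 to 1.96 CPM of Pdgfc. The part of depth in the result was not tested.

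**Figure D2:**
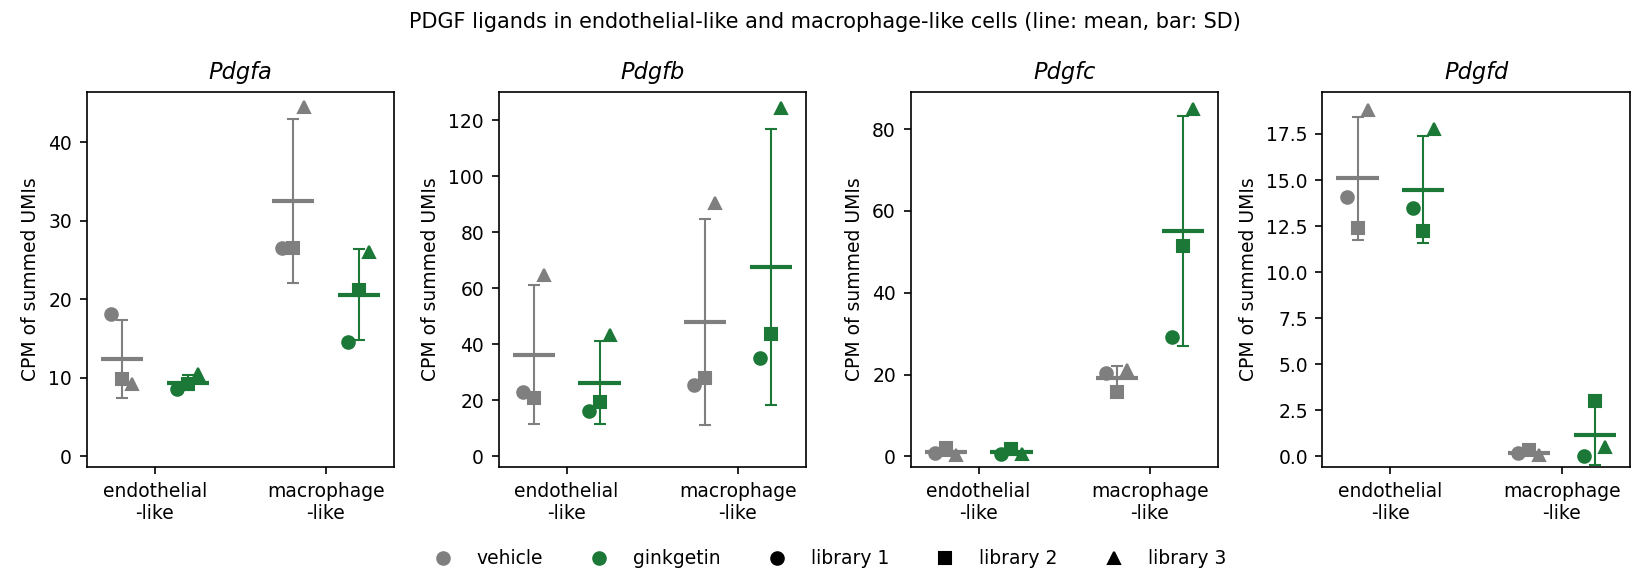
Level (CPM) of each PDGF ligand by library in endothelial-like and macrophage-like cells under vehicle and ginkgetin, with points for the libraries (shape by replicate number), lines for the mean and bars for the SD (n = 3). In macrophage-like cells the 3 ginkgetin points of Pdgfa lie below and those of Pdgfc above the vehicle points, while all groups overlap in endothelial-like cells.

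The macrophage-like class holds 3 clusters with markers of Kupffer cells, the resident macrophages of the sinusoid, and 2 clusters with Trem2 and Gpnmb, genes of lipid-associated macrophages. The libraries did not fill the same clusters. Replicates 1 and 2 of both groups shared 1 Kupffer cluster of 1313 cells, with Vsig4, Cd5l and Clec4f among its leading genes, as in the cluster that held most Kupffer cells of vehicle 3 (373 of 379 cells). The cluster that held most Kupffer cells of ginkgetin 3 (498 of 507 cells) was led by Cd163, Marco, C6, Fcna and Timd4. All 5 Kupffer markers of the list were detected in it, but Clec4f, Vsig4 and Cd5l were not among its 10 leading genes. Most cells of 1 Trem2 cluster came from vehicle 3 (703 of 738). The mix of the class moved with the groups, as the Trem2 clusters made up 49.0, 49.5 and 64.5% of macrophage-like cells in the vehicle libraries and 14.4, 15.7 and 6.55% in the ginkgetin libraries. In the Kupffer clusters Pdgfa stood at 28.1, 30.2 and 48.9 CPM under vehicle and at 7.83, 20.9 and 20.5 CPM under ginkgetin, without overlap. In the Trem2 clusters it stood at 24.5, 23.4 and 41.6 CPM under vehicle and at 34.0, 21.7 and 57.2 CPM under ginkgetin, where the groups overlapped. The ginkgetin values of the Trem2 clusters rest on 3, 4 and 18 UMIs in 15, 38 and 36 cells. The lowest Kupffer value, that of ginkgetin 1, rests on 2 UMIs in 89 cells.

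Fitted separately, Pdgfa had a log2 fold change of -1.44 (adjusted p = 0.0300, edgeR) in the Kupffer clusters and 0.10 (adjusted p = 0.994, edgeR) in the Trem2 clusters. The difference between these folds was 1.53 (SE 0.42, adjusted p = 0.0250, edgeR's quasi-likelihood test of the interaction). In the same fit 398 of 10112 genes had an adjusted p under 0.05. Without ginkgetin 3 the difference for Pdgfa was 0.92 (adjusted p = 0.679, edgeR), and 153 of 10861 genes passed. Pdgfc was mainly a transcript of the Kupffer clusters, at 30.3, 24 and 32.3 CPM under vehicle and 35.2, 71.1 and 96.1 CPM under ginkgetin. In the Trem2 clusters it held 7.99, 8.71 and 13.7 CPM under vehicle and 11.3, 0 and 22.2 CPM under ginkgetin. It was higher in the Kupffer clusters in 6 of 6 libraries, and the difference between its folds was -0.99 (adjusted p = 0.379, edgeR). Within the Kupffer clusters alone the log2 fold change of Pdgfc was 0.83 (adjusted p = 0.0913, edgeR), against 1.08 in the whole class. Pdgfb lay higher in the Trem2 than in the Kupffer clusters in 5 of 6 libraries.

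The share of macrophage-like cells with a UMI was compared after each cell had been thinned to 1000 UMIs, which sets the number of UMIs per cell equal and nothing else. Cells under 1000 UMIs were left out, 2 of vehicle 3 and 58 of ginkgetin 3, so that 3907 of 3967 cells remained. Pdgfc was found in 2.34, 1.90 and 2.19% of the cells under vehicle and in 2.88, 4.55 and 10.2% under ginkgetin. The groups did not overlap, and the exact two-sided permutation test gave p = 0.1, the smallest that 3 libraries against 3 allow (adjusted p = 0.933 over 12 such tests). Pdgfa was found in 3.23 ± 1.49% (SD, n = 3) against 1.57 ± 1.39% (SD, n = 3), with overlap. For background, the share in T cell-like cells (median 3342 UMIs) was 0.0645% for Pdgfa and 0.108% for Pdgfc, and in B cell-like cells (median 2334 UMIs) no cell of 2625 had a UMI of either, which allows a share of up to 0.114%. The median macrophage-like cell held 8723 UMIs. Without thinning, Pdgfa was seen in 20.8% of macrophage-like cells under vehicle and 5.82% under ginkgetin, and Pdgfc in 17.4% and 15.3%.

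In the endothelial-like cells, none of the 3 ligands tested was called. Pdgfb, the endothelial ligand that recruits pericytes, stood at 22.8, 20.9 and 64.8 CPM under vehicle and at 16.1, 19.5 and 43.2 CPM under ginkgetin. Replicate 3 was the highest in both groups and the groups overlapped, with a log2 fold change of -0.59 (SE 0.43, adjusted p = 0.628, edgeR's quasi-likelihood test). The ginkgetin library was below the vehicle library of the same number in 3 of 3 pairs. With the replicate number as a block the log2 fold change was -0.57 (SE 0.15, adjusted p = 0.0532, edgeR), and with replicate 3 against the others as a block it was -0.56 (SE 0.14, adjusted p = 0.0331, edgeR), which is under the fold of 2 that a call asks for. Pdgfa stood at 18.1, 9.79 and 9.26 CPM under vehicle and at 8.53, 9.21 and 10.4 CPM under ginkgetin. Vehicle 1 alone was high, and the log2 fold change was -0.59 (SE 0.35, adjusted p = 0.539, edgeR). Pdgfd, a ligand of the beta receptor, stood at 14.1, 12.4 and 18.8 CPM under vehicle and at 13.5, 12.2 and 17.8 CPM under ginkgetin. The groups overlapped, with a log2 fold change of -0.21 (SE 0.17, adjusted p = 0.673, edgeR). Of the 10419 genes tested here, 0.691% were called, 0.269% higher and 0.422% lower.

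The endothelial-like class holds sinusoidal, pericentral and vascular clusters, and the vascular ones carry markers of larger vessels such as Vwf. Vehicle 3 contributed 376 vascular and 31 sinusoidal cells, so its class level is mostly vascular by this naming. The vascular cluster that held 375 of these cells had 6 of 7 vascular markers but also 5 of 5 sinusoidal markers detected. The sinusoidal cells of the groups fell into different clusters. Of the 3 sinusoidal clusters, 1 led by Sepp1, Pde2a and Ehd3 held 2954 ginkgetin cells of 2986, 1 led by Fabp4, Lyve1 and Igfbp7 held 1512 vehicle cells of 1573, and 1 held 991 cells of ginkgetin 3 of 1006. Of the 2 vascular clusters, 1 was shared by replicates 1 and 2 of both groups (994 cells) and the other by the replicate 3 libraries (516 cells). Pdgfb was higher in vascular than in sinusoidal clusters in 6 of 6 libraries. It stood at 25.5, 21.5 and 66.0 CPM under vehicle and 20.2, 40.6 and 121 CPM under ginkgetin in the vascular clusters, and at 22.4, 21.1 and 36.6 CPM and 15, 13 and 30.1 CPM in the sinusoidal clusters. The sinusoidal value of vehicle 3 rests on 5 UMIs. Within the sinusoidal clusters, and so between different clusters, the 3 ginkgetin libraries were each below the vehicle library of their number, and in vascular clusters ginkgetin 2 and 3 were above theirs. The difference between the vascular and the sinusoidal fold was 1.51 on the log2 scale (SE 0.38, adjusted p = 0.166, edgeR's quasi-likelihood test), and with 1 library left out it ranged from 1.15 (adjusted p = 0.796, edgeR) without ginkgetin 3 to 1.74 (adjusted p = 0.00997, edgeR) without vehicle 3, the only 1 of the 6 fits that passed. Without vehicle 3, 182 of 10328 genes passed, against 29 of 10191 with all libraries. Pdgfd was also higher in vascular than in sinusoidal clusters in 6 of 6 libraries, at means of 28.8 and 11.8 CPM.

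**Figure D3:**
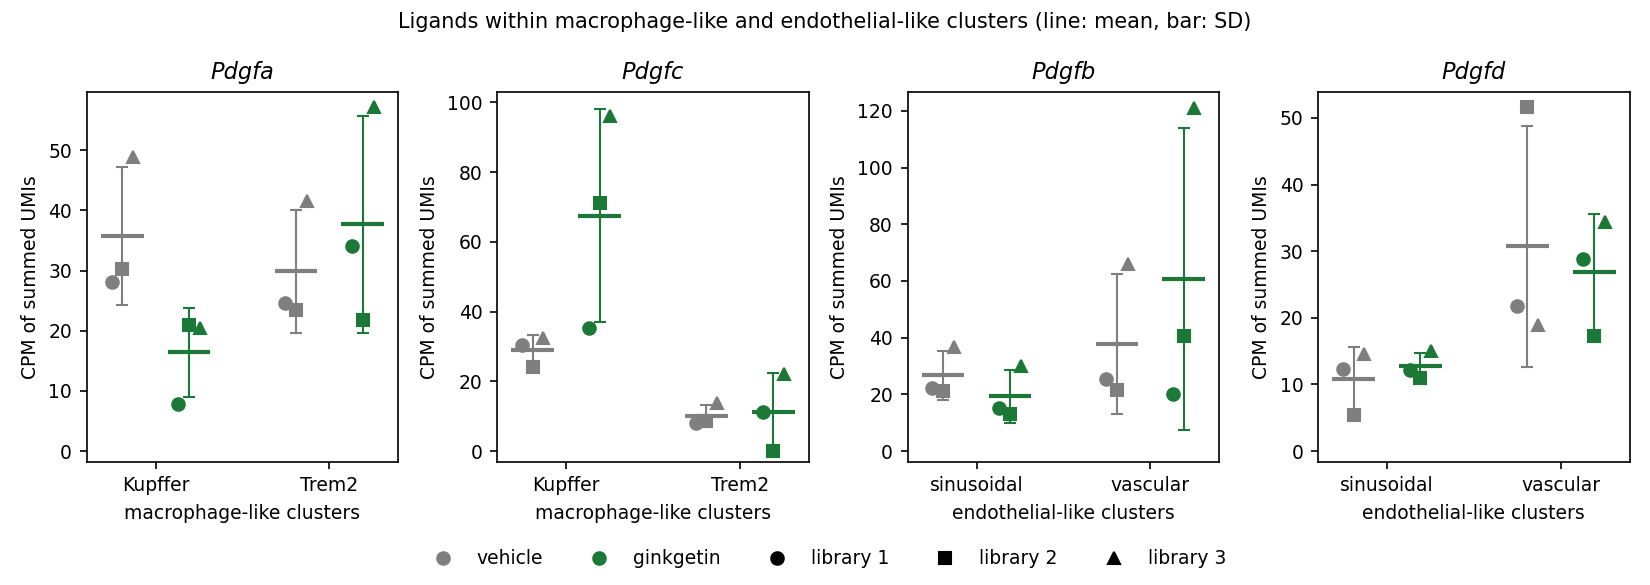
Level (CPM) by library of Pdgfa and Pdgfc in the Kupffer and Trem2 clusters and of Pdgfb and Pdgfd in the sinusoidal and vascular clusters, under vehicle and ginkgetin, with points for the libraries (shape by replicate number), lines for the mean and bars for the SD. The ginkgetin points of Pdgfa lie below the vehicle points in the Kupffer clusters and overlap them in the Trem2 clusters, and Pdgfc is higher in the Kupffer clusters than in the Trem2 clusters in all 6 libraries.

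Cholangiocyte-like cells, the class with the highest Pdgfa, Pdgfc and Pdgfd, were tested after their levels had been seen. Pdgfc stood at 158, 180 and 104 CPM under vehicle and at 177, 157 and 218 CPM under ginkgetin, with overlap (log2 fold change 0.33, adjusted p = 0.604, edgeR). Pdgfa stood at 95.4, 165 and 93.0 CPM under vehicle and at 172, 179 and 121 CPM under ginkgetin (0.44, adjusted p = 0.561, edgeR). Pdgfd stood at 127, 141 and 110 CPM under vehicle and at 89.6, 77.5 and 132 CPM under ginkgetin (-0.34, adjusted p = 0.565, edgeR). None of the 4 ligands was called there, where 0.176% of 7947 genes were (0.138% higher and 0.0378% lower), and the groups overlapped for each of these ligands. Pdgfb stood at 25.7, 16 and 83.9 CPM under vehicle and at 13.3, 12.6 and 20.6 CPM under ginkgetin, with vehicle 3 far above the rest (-1.37, adjusted p = 0.381, edgeR). In NK cell-like cells Pdgfb had a log2 fold change of 0.65 (adjusted p = 0.701, edgeR) and in monocyte-like cells of 0.32 (adjusted p = 0.814, edgeR).

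The share of a ligand's UMIs that came from each class joins its level with the number and depth of the cells captured. For Pdgfb, macrophage-like cells gave 49.8, 52.8 and 69.1% of all UMIs under vehicle and 9.60, 9.24 and 25.7% under ginkgetin. Endothelial-like cells gave 14.3, 10.0 and 9.13% under vehicle and 39.2, 56.1 and 37.5% under ginkgetin. Macrophage-like cells were thus the largest source in every vehicle library and endothelial-like cells in every ginkgetin library, and the groups did not overlap (exact two-sided permutation test, p = 0.1, adjusted p = 0.16 over 8 shares, n = 3 per group). This rests on how the cells were filtered. With the study's limits of 250 to 5000 read as UMIs per cell, as its text states them, macrophage-like cells gave 15.7, 24 and 28.1% under vehicle and 6.82, 9.87 and 51.5% under ginkgetin, with overlap (means 22.6 and 22.7%, exact permutation p = 1.0). Endothelial-like cells then gave 39.9, 27.1 and 8.26% under vehicle and 54.5, 66.1 and 5.68% under ginkgetin, again with overlap. With the filter used here, macrophage-like cells made up 20.6, 22.0 and 26.5% of vehicle cells and 2.98, 3.50 and 15.1% of ginkgetin cells, and endothelial-like cells 20.6, 16.4 and 9.84% and 36.5, 48.6 and 31.2%. The part of these cell numbers in the shares of UMIs was not tested. With each class given equal weight, the macrophage-like share of Pdgfb was 21.7% under vehicle and 29.2% under ginkgetin, and the endothelial-like share 17.0% and 12.2%, the opposite directions.

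By the same measure, the macrophage-like share of Pdgfa was 57.2 ± 17.7% (SD, n = 3) under vehicle and 8.30 ± 7.73% (SD, n = 3) under ginkgetin. Its endothelial-like share was 6.10 ± 4.60% (SD, n = 3) and 24.1 ± 6.46% (SD, n = 3). Neither overlapped (exact permutation p = 0.1, adjusted p = 0.16 for each). Its cholangiocyte-like share was 18.2, 35.5 and 5.79% under vehicle and 58.1, 54.6 and 26.1% under ginkgetin. For Pdgfc, macrophage-like cells gave 54.4, 36.7 and 80.7% under vehicle and 9.26, 15.9 and 50.9% under ginkgetin, with overlap (exact permutation p = 0.2, adjusted p = 0.229). Cholangiocyte-like cells gave 40.9, 56.4 and 14.3% under vehicle and 86.1, 70.1 and 42.8% under ginkgetin. For Pdgfd, endothelial-like cells gave 25.9 ± 13.2% (SD, n = 3) under vehicle and 52.5 ± 7.01% (SD, n = 3) under ginkgetin, without overlap (exact permutation p = 0.1, adjusted p = 0.16). With the limits read as UMIs per cell the direction turned, at 83.5 ± 4.27% (SD, n = 3) under vehicle and 79.6 ± 4.84% (SD, n = 3) under ginkgetin, with overlap. By that reading the macrophage-like share of Pdgfa was 28.6% under vehicle and 23.7% under ginkgetin, and its endothelial-like share 27.9% and 41.2%, both with overlap. Fewer cells in the liver, fewer cells captured and less RNA per cell cannot be told apart in these shares.

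**Figure D4:**
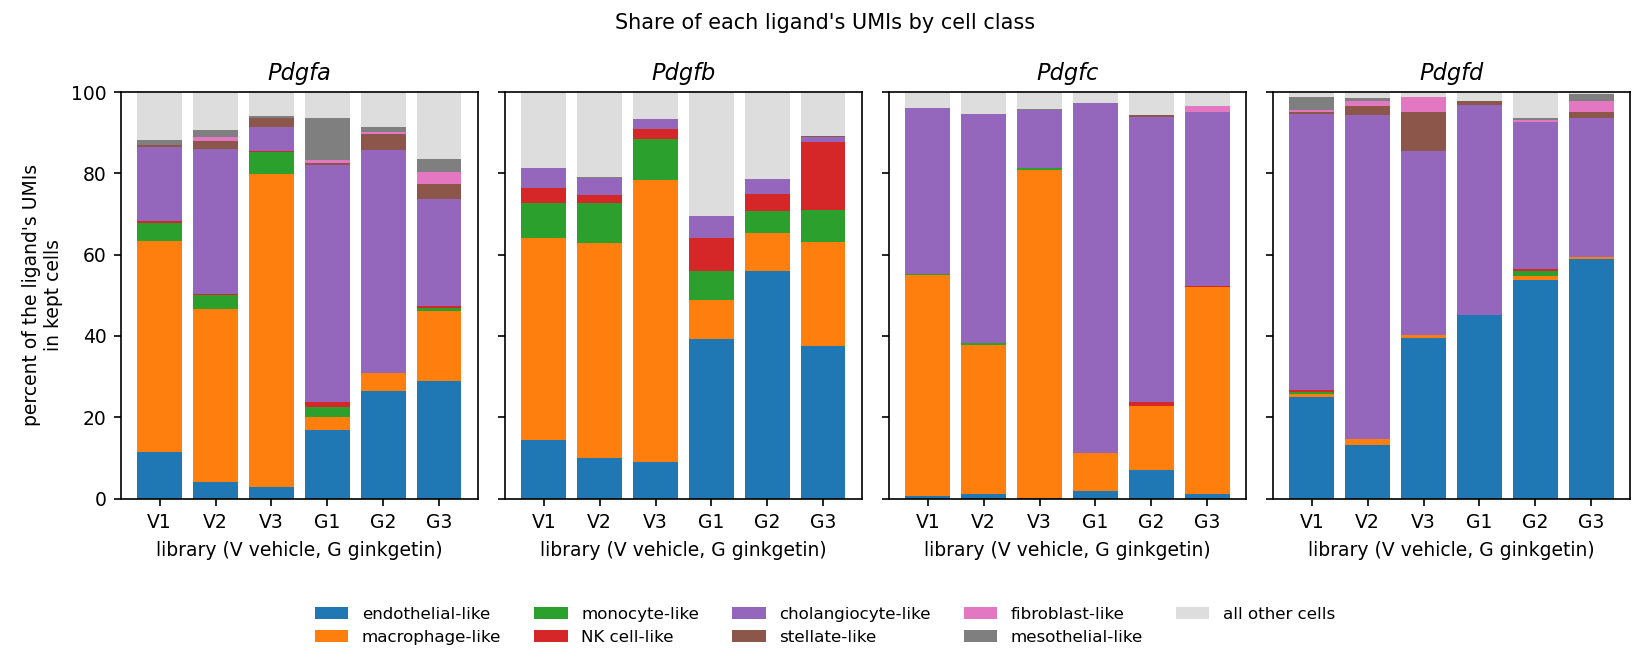
Share of each PDGF ligand's UMIs in kept cells (percent, stacked by cell class) for the vehicle (V) and ginkgetin (G) libraries. Macrophage-like cells are the largest source of Pdgfb in each vehicle library and endothelial-like cells in each ginkgetin library, and cholangiocyte-like cells supply a large part of Pdgfa, Pdgfc and Pdgfd.

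On the receiving side, neither receptor was called in stellate-like cells. Pdgfra, bound by the A, B and C chains, stood at 133, 204 and 417 CPM under vehicle and at 189, 251 and 492 CPM under ginkgetin. Pdgfrb, bound by the B and D chains, stood at 236, 276 and 702 CPM under vehicle and at 170, 408 and 629 CPM under ginkgetin. Replicate 3 was the highest of both groups for both genes, and the groups overlapped. Pdgfra was higher under ginkgetin than in the vehicle library of the same number in 3 of 3 pairs, and Pdgfrb in 1 of 3. With vehicle 1 left out of the fit for its 6 cells, the log2 fold change was -0.03 (SE 0.53, adjusted p = 1.0) for Pdgfra and -0.30 (SE 0.60, adjusted p = 0.974) for Pdgfrb by edgeR's quasi-likelihood test. With the replicate number as a block they were 0.21 (adjusted p = 0.864, edgeR) and 0.13 (adjusted p = 0.930, edgeR). The fit used 24 and 38 against 12, 65 and 36 cells, 1 gene of 5157 (0.0194%) was called with these cells, and the SEs above limit which differences were detectable. Clustered among themselves, the stellate-like cells split by replicate and by group. Of 7 sub-clusters, 4 held no cell of replicate 3 and the other 3 held cells of replicate 3 in 30 of 30, 27 of 27 and 17 of 18. By group, 3 held ginkgetin cells in 36 of 37, 27 of 33 and 30 of 30 cells, and another 3 held vehicle cells in 26 of 27, 19 of 24 and 12 of 18. Of the 38 cells of vehicle 3, 26 fell into a sub-cluster led by C3, Itgbl1 and Dpt, in which 7 of 10 fibroblast markers were detected. The other 12 were in a sub-cluster led by Myh11, Notch3 and Acta2. The highest 5% of doublet scores of each library took in 3, 24 and 17 of the stellate-like cells under vehicle, all those of vehicle 2 among them, and 1, 7 and 17 under ginkgetin. Without those cells vehicle 3 was the only vehicle library left, and the log2 fold change was -0.79 (adjusted p = 0.977, edgeR) for Pdgfra and -0.88 (adjusted p = 0.940, edgeR) for Pdgfrb. Stellate-like cells also held Pdgfa, at 44.2, 47.9 and 55.6 CPM under vehicle and 18.9, 45.4 and 38.1 CPM under ginkgetin (-0.51, SE 0.48, adjusted p = 0.916, edgeR).

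Fibroblast-like cells were too few for the planned test, with 6, 10 and 11 cells under vehicle and 3, 3 and 23 under ginkgetin. All of these cells but 1 of ginkgetin 2 were among the highest 5% of doublet scores of their library. Pdgfra stood at 330, 312 and 358 CPM under vehicle and at 174, 269 and 897 CPM under ginkgetin, of which the first and second ginkgetin values rest on 3 UMIs each. Pdgfrb stood at 66.1, 55.1 and 59.7 CPM under vehicle and at 58.0, 179 and 158 CPM under ginkgetin, from 1, 2 and 38 UMIs in the last group. Only ginkgetin 3, with most of the cells, was far above vehicle for Pdgfra. The class consists of 2 sub-clusters that split by replicate. One held 34 cells of replicate 3 among 35, with Pdgfra at 715 CPM, and the other held 21 cells and none of replicate 3, with Pdgfra at 299 CPM.

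Pdgfra and Pdgfrb were also looked for in the same stellate-like cells. After thinning to 1000 UMIs, 16 of 179 cells had a UMI of both (8.94%, 95% Wilson interval 5.58 to 14.0%, counting error only), 26 of Pdgfra alone and 48 of Pdgfrb alone. Pdgfra was seen in 25% of cells with Pdgfrb and in 22.6% of cells without it. Without thinning, 103 of 181 cells (56.9%) had both. The balance of the receptors set the classes apart: Pdgfrb made up 64.0, 57.5 and 62.7% of receptor UMIs under vehicle and 47.4, 61.9 and 56.1% under ginkgetin in stellate-like cells, against 16.7, 15 and 14.3% and 25, 40.0 and 15% in fibroblast-like cells. In a group of 18 stellate-like cells led by Myh11, Notch3 and Acta2, genes of contractile mural cells, it made up 89.8% of receptor UMIs. Of these cells, 12 came from vehicle 3.

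**Figure D5:**
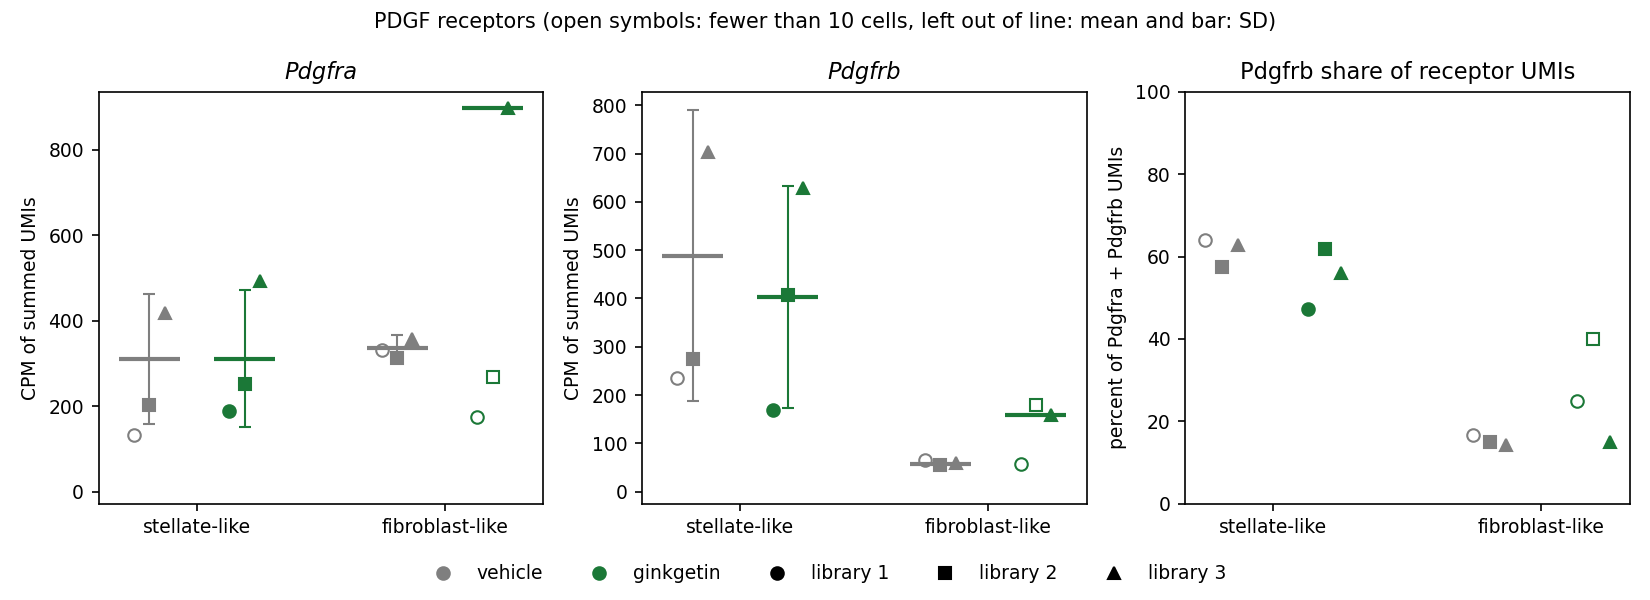
Level (CPM) of Pdgfra and Pdgfrb and the share of Pdgfrb among the UMIs of both (percent) by library in stellate-like and fibroblast-like cells, with open points for libraries of fewer than 10 cells, which the mean (line) and SD (bar) leave out. The vehicle and ginkgetin points overlap for both receptors in stellate-like cells, where the Pdgfrb share is 47.4 to 64.0% against 14.3 to 40.0% in fibroblast-like cells.

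The genes around the receptors were followed with 6 lists of 90 genes in all. In stellate-like cells, 26 of 36 genes of receptor-proximal signalling (adaptors, kinases and phosphatases such as Grb2, Pik3r1 and Ptpn11) were tested and none was called. Their median log2 fold change was 0.26 beside 0.01 for all genes. The early response genes, immediate targets of growth factor signals, had a median of 0.99 with 12 of 12 fitted above 0 and none called. Most of this list was fitted above 0 in other classes too, with 10 of 14 genes (median 0.34) in endothelial-like cells. The counts were 10 of 11 (0.29) in macrophage-like and 11 of 13 (0.38) in cholangiocyte-like cells. The lowest p of the list in stellate-like cells was that of Ier2, at 118, 132 and 88.1 CPM under vehicle and 547, 499 and 318 CPM under ginkgetin (1.99, adjusted p = 0.408, edgeR). The groups did not overlap for Ier2.

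Of the stellate activation list, 14 of 14 genes were tested in stellate-like cells, with a median of -0.99 and 2 fitted above 0, and 1 was called lower, the only gene called among the 5157 tested in these cells (0.0194%). This was Timp1, the inhibitor of matrix metalloproteinases, at 678, 551 and 422 CPM under vehicle and 0, 3.49 and 9.53 CPM under ginkgetin (46, 92 and 182 UMIs against 0, 1 and 3). The groups were far apart (log2 fold change -6.30, adjusted p = 0.0243, edgeR). Without any 1 ginkgetin library no gene was called in these cells. Of the quiescence list 10 of 11 genes were tested, with a median of 0.66, 8 fitted above 0 and none called. Its lowest p was that of Reln, a secreted glycoprotein of resting stellate cells, at 751, 892 and 672 CPM under vehicle and 1981, 1654 and 2757 CPM under ginkgetin (1.38, adjusted p = 0.617, edgeR). Beside these values, the summed fibroblast markers in stellate-like cells were 2210 to 6784 CPM under vehicle and 1622 to 1788 CPM under ginkgetin, with 6 of 10 above 0 in all libraries. The summed macrophage markers in these cells were 221 to 313 CPM under vehicle and 54.0 to 126 CPM under ginkgetin, without overlap (3 of 11 above 0 in all libraries), and the summed monocyte markers 707 to 2048 CPM and 283 to 1151 CPM (1 of 8). Plasmacytoid dendritic markers were also lower without overlap, at 517 to 719 CPM under vehicle and 254 to 366 CPM under ginkgetin (1 of 5), as were platelet or megakaryocyte markers, at 195 to 252 CPM and 113 to 127 CPM (1 of 6). Endothelial markers lay the other way, at 103 to 267 CPM under vehicle and 264 to 942 CPM under ginkgetin, with overlap (1 of 8). The part of these cells' RNA in the stellate values was not tested. For ligand processing and for binding partners 2 and 5 genes were tested and none was called. The lowest p belonged to Plat (-2.93, adjusted p = 0.317, edgeR), the tissue plasminogen activator that can release the C chain, and to Thbs1 (-2.28, adjusted p = 0.484, edgeR). In receptor-proximal signalling it belonged to Nras (0.90, adjusted p = 0.799, edgeR).

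In macrophage-like cells all 36 genes of receptor-proximal signalling were tested, and 4 were called higher and none lower, beside 5.62% of all genes called higher. Ptprj, a receptor phosphatase that acts on the beta receptor, stood at 98.4, 102 and 137 CPM under vehicle and at 268, 317 and 396 CPM under ginkgetin (1.07, adjusted p = 0.0176, edgeR). Nck1, an adaptor, stood at 42.7, 41.8 and 42.0 CPM under vehicle and at 134, 106 and 125 CPM under ginkgetin (1.06, adjusted p = 0.0205, edgeR). The groups were clearly apart for both genes. The other two were Plcg1 (1.79, adjusted p = 0.0247, edgeR) and Gab1 (1.70, adjusted p = 0.0199, edgeR), which rested on 2, 9 and 22 and on 5, 7 and 45 UMIs under ginkgetin. Since the PDGF receptors themselves were nearly missing from these cells, the list is here one of shared signalling genes.

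The other lists in macrophage-like cells are read against 5.09% of all genes called lower and 5.62% called higher. Thbs1 was called lower among 6 binding partners tested (-2.20, adjusted p = 0.0455, edgeR). Vim (-1.81, adjusted p = 0.0335, edgeR) and Spp1 (-2.32, adjusted p = 0.0320, edgeR), the gene of osteopontin, were called lower among 4 genes tested of the stellate activation list. Spp1 is also a marker of the Trem2 clusters, whose share of the class moved with the groups as given above, and the part of this mix in the class-level calls was not tested. Spp1 stood at 269, 366 and 654 CPM under vehicle and at 43.7, 190 and 117 CPM under ginkgetin. Among 8 genes tested of the quiescence list Pparg, a nuclear receptor of lipid metabolism, was called lower (-2.40, adjusted p = 0.0107, edgeR), and Vipr1 (1.86, adjusted p = 0.0174, edgeR) and Lrat (2.54, adjusted p = 0.0335, edgeR) were called higher. Lrat and Vipr1 are stellate markers. In the ginkgetin libraries they rested on 1, 4 and 25 and on 5, 9 and 36 UMIs, beside summed stellate markers of 93.1 to 198 CPM under ginkgetin and 47.3 to 93.4 CPM under vehicle, with 7 of 10 above 0 in all libraries. Their part in these calls was not tested. Of ligand processing and early response none was called, with the lowest p for Pcsk7 (0.84, adjusted p = 0.125, edgeR) and for Dusp6 (0.94, adjusted p = 0.0545, edgeR).

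In endothelial-like cells 34 of 36 genes of receptor-proximal signalling were tested, and Cblb alone was called, lower, beside 0.422% of all genes called lower. Cblb, a ubiquitin ligase that marks receptor tyrosine kinases for degradation, stood at 28.9, 26.1 and 43.0 CPM under vehicle and at 15.4, 14.2 and 19.9 CPM under ginkgetin. All ginkgetin libraries lay below the vehicle libraries (log2 fold change -1.12, adjusted p = 0.0480, edgeR). With any 1 library left out, 0 or 1 gene was called in endothelial-like cells. The list's median was 0.04, close to that of all genes at -0.01. The lowest p of the other lists was that of Plat (-0.88, adjusted p = 0.462, edgeR), Thbs1 (-2.83, adjusted p = 0.130, edgeR), Myc (-2.50, adjusted p = 0.0606, edgeR), Vim (-1.13, adjusted p = 0.0772, edgeR) and Pparg (-1.99, adjusted p = 0.0682, edgeR), and none of these was called. The summed macrophage markers in endothelial-like cells were 220 to 384 CPM under vehicle and 61.1 to 155 CPM under ginkgetin, with 9 of 11 above 0 in all libraries, and their part in the endothelial values was not tested.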

How the data were processed

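Liver non-parenchymal cells of NASH mice were profiled by 10x Genomics single-cell RNA-seq in 3 vehicle and 3 ginkgetin libraries. The labels describe 10x Genomics libraries, although their protocol field names an RNA column kit and a SMARTER kit, which are not 10x chemistry. The tables hold counts per barcode, so the 10x description was followed. The authors deposited tables of raw UMI counts per gene and barcode. Per the labels the builds are GRCm38 and mm10, and the aligner is not given in the sources used here. The stated filter (250 to 5000 UMIs, under 5% mitochondrial counts) left 16821 of 33168 barcodes. Applied to genes detected instead, as used here, it left 27544. Doublets were kept, and leaving out the 5% highest doublet scores was an alternative.

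Cells were clustered on 2000 variable genes without the PDGF members (scanpy 1.11.5; 30 principal components, 15 neighbours, Leiden resolution 1) and named from at least 3 detected markers, and 1291 cells stayed unnamed. UMIs were summed per library and class (10 cells or more) and tested with edgeR 4.0.16 (filterByExpr, TMM, quasi-likelihood test, Benjamini-Hochberg over all genes tested), with DESeq2 1.42.0 as an alternative. The scripts were tested on simulated data. Shares were compared by exact permutation over libraries. Intervals cover counting error only.

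The members, lists and tests were chosen with earlier results of these data known. Named genes were the members, the list genes called or else of lowest p in a class, and the 3 genes most like each member over classes. Ctgf was taken for Ccn2 as its older symbol. Replicate numbers were taken to pair the libraries. Deviations of same-numbered libraries correlated at 0.66, 0.63 and 0.91 in endothelial-like and 0.40, 0.45 and 0.80 in macrophage-like cells. Replicates 1 and 2 correlated about as much across numbers, at 0.62 and 0.67 in endothelial-like and 0.38 and 0.42 in macrophage-like cells. These values set replicate 3 apart and do not show that replicates 1 and 2 pair by number. The replicate block and the comparisons within pairs rest on that assumption.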

Additional observations from a re-analysis of the deposited data

Results flagged for a closer look

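The fold change of Pdgfa between ginkgetin and vehicle differed between the Trem2 and the Kupffer clusters of the macrophage-like class by 1.53 on the log2 scale (SE 0.42, adjusted p = 0.0250, edgeR's quasi-likelihood test of the interaction), a difference between groups of cells under the same contrast. It was 1 of 398 genes with an adjusted p under 0.05 among the 10112 tested in this fit. Pdgfa was lower under ginkgetin in 3 of 3 libraries in the Kupffer clusters, and the groups overlapped in the Trem2 clusters. Most Kupffer cells of vehicle 3 and of ginkgetin 3 fell into clusters of their own, with different leading genes, and some genes were counted under other symbols in replicate 3. The difference was 0.92 (adjusted p = 0.679, edgeR) without ginkgetin 3 and 0.98 (adjusted p = 0.678, edgeR) with replicates 1 and 2 alone.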

How the results depend on the processing

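Of 412 values recomputed under the alternatives, 310 stayed the same, 40 turned direction, 39 moved, 14 were no longer past the threshold and 9 newly passed it. Fold changes stayed the same if they kept direction and side of the threshold, and shares if they kept direction. Numbers of genes called did so within a fixed factor, levels within their SD and co-detection within its Wilson interval. Of the 39, 14, 10 and 12 were numbers of genes called in endothelial-like, macrophage-like and stellate-like cells. The log2 fold changes below are from edgeR unless another tool is named, and the cause of each change was not tested.

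In macrophage-like cells Pdgfa stayed lower in the whole class but was no longer called with library totals alone (-0.59), no filter on genes (-1.13), replicates 1 and 2 (-0.91), the UMI reading of the cell filter (-0.65), doublet scores left out (-1.16) and cells assigned by their own markers (-1.07), nor with any 1 library left out (-1.22 to -0.83). In the Trem2 clusters alone it was 0.10, and 0.011 with a batch block. Pdgfc was called with library totals alone (1.60), DESeq2's Wald test (1.06), a replicate block (1.11), a batch block (replicate 3 against the others, 1.09), no filter on barcodes (1.11) and doublet scores left out (1.08), and over libraries left out it ranged from 0.70 to 1.24, with a call only without ginkgetin 1. In the Trem2 clusters with a batch block it was -0.067. Pdgfb was -0.31 by the UMI reading and ranged from -0.62 to 0.87 over libraries left out.

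In endothelial-like cells Pdgfb was 0.55 in the vascular clusters and 0.62 there with a batch block. Pdgfd was 0.12 in the sinusoidal clusters, 0.042 there with a batch block and 0.0025 in the vascular clusters with a batch block. The vascular minus sinusoidal difference of Pdgfb passed with replicates 1 and 2 alone (1.38) and without vehicle 3 (1.74), where 284 of 9755 and 182 of 10328 genes passed. That of Pdgfd, at -0.30, ranged from -1.50 to 0.35 over libraries left out.

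In stellate-like cells Pdgfra, at -0.03, was 0.026 with library totals alone, 0.21 with the replicate block, 0.14 with the batch block, 0.16 with replicates 1 and 2, 0.044 with cells assigned by their own markers, 0.23 with no minimum of cells and -0.50 to 0.49 over libraries left out. Pdgfrb was 0.13 with the replicate block, 0.22 with replicates 1 and 2 and -0.84 to 0.43 over libraries left out. The replicate block changed no other call of a PDGF gene.

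The number of genes called in endothelial-like cells (72) was 19 with library totals alone, 326 by DESeq2's Wald test, 22 with no filter on genes, 441 with the replicate block, 467 with the batch block, 357 with replicates 1 and 2, 116 with no filter on barcodes, 22 with cells assigned by their own markers and 0 to 1 over libraries left out. In macrophage-like cells (1089) it was 1731, 706 with no filter on genes, 1638 and 1670 with the blocks, 175 by the UMI reading, 651 with cells assigned by their own markers and 0 to 1168 over libraries left out. It was 0 without vehicle 1, vehicle 2 or ginkgetin 2, where 2015, 1972 and 2831 genes had an unadjusted p under 0.05, and 244 without ginkgetin 3. In stellate-like cells (1) it was 26 by DESeq2's Wald test, 101 with no filter on genes, 175 and 158 with the blocks, 51 with replicates 1 and 2, 0 with cells assigned by their own markers, 46 without the highest doublet scores and 0 to 9 over libraries left out. The fits of replicates 1 and 2, without the highest doublet scores, without vehicle 2 (9) and without vehicle 3 (2) hold 1 vehicle library, which is assumed to vary like the ginkgetin libraries.

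The ginkgetin minus vehicle share of cells with a UMI, in percentage points, became 0.0667 for Pdgfa and 0.0619 for Pdgfb in endothelial-like cells and -8.78 for Pdgfra in fibroblast-like cells after thinning to 500 UMIs. Without thinning it became -15.6 for Pdgfb and -2.11 for Pdgfc in macrophage-like cells, -15.4 for Pdgfra and 32.05 for Pdgfrb in fibroblast-like cells, and -8.58 for Pdgfra and -15.0 for Pdgfrb in stellate-like cells. The difference in a ligand's UMI share, with each class given equal weight, became -0.995 for Pdgfa and -4.84 for Pdgfb in endothelial-like cells and 7.51 for Pdgfb and 9.25 for Pdgfc in macrophage-like cells. By the UMI reading it became 0.143 for Pdgfb in macrophage-like and -3.86 for Pdgfd in endothelial-like cells. As a mean of per-cell values, Pdgfd was 49.96 CPM in mesothelial-like and 54.4 CPM in fibroblast-like cells. Without thinning 56.9% of stellate-like cells had both receptors. The planned fits of fibroblast-like cells, where at most 1 ginkgetin library held 10 cells, and of stellate-like cells by the UMI reading, where no vehicle library did, were not run. With no minimum of cells, 0 of 569 genes were called in fibroblast-like cells by edgeR, and 32 had an unadjusted p under 0.05.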
